A study of Mus musculus with 8 samples.

Results

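Etnppl, Phyhd1, Prom1, Scrg1, Them4, Map3k19 and 8030451A03Rik are 7 genes picked for a difference in astrocyte transcript level between mice with and without astrocyte glucocorticoid receptor (GR) knockout. They are not the 7 largest differences: over all libraries their ranks among decreases or increases ran from 1 to 43, so that genes outside the set changed more than some of its members. They are 7 of the 26711 features counted and 7 of the 14402 genes that passed the filter on low counts in astrocytes. They were chosen by the GR-KO against GR-Con contrast in astrocyte nuclei, so their levels, fold changes and ranks in that contrast are given as a description with no test. The members are tested in contrasts that did not choose them, namely rearing, sex, nuclei with and without vector transcript inside a library, and genotype in other cell types. For genes outside the set, from lists of related genes, the astrocyte genotype contrast is given with its test.

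The data were single-nucleus RNA-seq of primary visual cortex (V1) from mice at postnatal day 21 (P21). All mice were GR fl/fl, that is, they carried loxP sites in both copies of Nr3c1, and all received an adeno-associated virus at birth, serotype AAV2/5, in which the GfaABC1D promoter drives either an inactive ΔCre (GR-Con) or Cre (GR-KO), joined by a self-cleaving peptide to EGFP with a CAAX membrane anchor and followed by the elements 4x6T and WPRE. The GfaABC1D promoter restricts expression mainly to astrocytes, so the deletion was aimed at these cells and not at the whole tissue. Mice were reared in normal light (NR) or in darkness (DR), which gave 4 groups of 2 libraries, 1 from a male and 1 from a female each. According to the study's methods nuclei were sorted as positive for the DNA dye DRAQ5 and negative for GFP fluorescence before library making.

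GR is a nuclear receptor that binds corticosterone in mice, moves to the nucleus and activates or represses genes at the DNA sites it occupies, alone or with other factors. Astrocytes are glia that take up transmitters, supply metabolites and cover synapses and vessels, and they mature during the postnatal weeks. Etnppl, Phyhd1 and Them4 encode metabolic enzymes, Prom1 a membrane protein, Scrg1 a small secreted protein and Map3k19 a kinase, whereas 8030451A03Rik is annotated as a processed transcript.

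The series held 102330 nuclei in 20 deposited cell types, with 9517 to 15161 nuclei and 168632129 to 288774016 UMIs per library. Of these, 9486 were astrocytes, 924 to 1794 per library. The label was checked with 10 astrocyte markers, among them Aqp4, Gja1 and Aldh1l1, and each had its highest level in the deposited astrocytes. Their summed level in astrocytes was 4225 to 5534 CPM (counts scaled to a total of 1000000 UMIs per library and cell type) with no marker at 0, whereas 5 excitatory neuron markers summed to 146 to 267 CPM there and 5 oligodendrocyte markers to 71.0 to 193 CPM. Microglia numbered 573 to 948 nuclei in 5 libraries and 2 to 4 in the NR GR-Con male, NR GR-KO male and DR GR-Con female libraries. Cre was at 0 CPM in the astrocytes of every GR-Con library and at 4.14 to 10.4 CPM in GR-KO. Nr3c1 ranged from 207 to 263 CPM over the GR-Con astrocyte libraries and from 268 to 284 CPM over those of GR-KO; reads were counted over the whole gene from its 3′ end, so these counts do not check the deletion of internal exons.

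The genes lie at separate loci (GRCm38, GENCODE vM21). Etnppl is at chr3:130617448-130637521 on the plus strand and Them4 at chr3:94310089-94332540 on the plus strand. Phyhd1 is at chr2:30266203-30282149 (plus), Prom1 at chr5:43993620-44102032 (minus), Scrg1 at chr8:57455923-57477585 (plus), Map3k19 at chr1:127815253-127855031 (minus) and 8030451A03Rik at chr4:63979854-64149924 (plus). Etnppl, Scrg1, Them4 and Map3k19 overlap no other annotated gene. Prom1 overlaps Gm42716 on its own strand, which had 71 astrocyte UMIs, and Gm16401 on the opposite strand, which had 7. 8030451A03Rik overlaps Tnc on the opposite strand, which had 11603, and Gm11216 on its own strand. Phyhd1 overlaps the annotated coding genes Gm28035 and Gm28038 on its own strand, and these, like Gm11216, are not among the features counted. How the counting split reads of such pairs was not tested, so the levels of Phyhd1, Prom1 and 8030451A03Rik are uncertain to that extent.

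Promoter windows of RefSeq (GRCm38.p6, 250 bases before to 50 after a start site) were at hand for 5 members in 9 windows, and not for Map3k19 and Scrg1. The stretches before the start site are shown for 3 lower and 1 higher gene because they hold, or lack, short patterns of GR and of nuclear factor I, a factor active in astrocytes. For each of these lower genes the window with a match was picked. The other windows of these genes, and that of 8030451A03Rik, held no match. They are chr3:130617325-130617574 (plus) for the second start site of Etnppl, chr2:30265953-30266202 (plus) for Phyhd1, chr5:44094769-44095018 (minus) for the second start site of Prom1 and chr3:94309882-94310131 (plus) for Them4. Capitals mark TTGGCA in Etnppl, a match to ACANNNTGT in Phyhd1 and the reverse complement of AGAACA in Prom1, whereas Them4 has none.
Etnppl: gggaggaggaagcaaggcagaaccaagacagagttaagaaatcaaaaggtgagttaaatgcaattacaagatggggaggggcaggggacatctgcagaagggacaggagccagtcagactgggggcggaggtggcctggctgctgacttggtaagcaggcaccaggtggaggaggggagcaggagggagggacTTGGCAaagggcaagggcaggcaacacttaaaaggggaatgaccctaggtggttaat
Phyhd1: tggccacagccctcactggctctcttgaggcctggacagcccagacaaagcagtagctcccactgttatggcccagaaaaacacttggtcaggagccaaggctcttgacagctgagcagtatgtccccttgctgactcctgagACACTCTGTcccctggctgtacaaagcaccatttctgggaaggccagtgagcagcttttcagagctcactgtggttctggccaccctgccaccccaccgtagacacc
Prom1: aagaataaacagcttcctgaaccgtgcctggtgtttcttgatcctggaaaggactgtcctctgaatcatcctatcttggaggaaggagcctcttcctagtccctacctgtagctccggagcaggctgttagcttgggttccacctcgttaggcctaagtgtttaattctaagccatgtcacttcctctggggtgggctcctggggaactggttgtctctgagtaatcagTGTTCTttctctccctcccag
Them4: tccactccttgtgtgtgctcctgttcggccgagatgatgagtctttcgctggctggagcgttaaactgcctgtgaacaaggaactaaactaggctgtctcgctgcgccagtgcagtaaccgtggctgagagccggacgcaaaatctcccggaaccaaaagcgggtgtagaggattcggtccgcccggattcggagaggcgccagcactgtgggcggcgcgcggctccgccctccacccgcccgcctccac
The 4 patterns were searched on both strands. The full GR palindrome is AGAACA, any 3 bases and the reverse complement of AGAACA, so it contains both shorter GR patterns. It was in 0 of the 9 windows and in 0.00913% of all 32851 windows. ACANNNTGT was in 1 of 9 (6.85% of all windows), AGAACA in 1 of 9 (19%) and TTGGCA in 1 of 9 (14.1%). These are matches of letters and not measured binding.

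Of the 7 genes, 4 were lower in GR-KO astrocytes and 3 were higher. Etnppl, which encodes the lyase that breaks down phosphoethanolamine, was at 285 CPM in the male and 203 in the female library of NR GR-Con, 28.7 and 29.3 in NR GR-KO, 248 and 108 in DR GR-Con, and 31.7 and 57.3 in DR GR-KO. All GR-Con libraries lay above all GR-KO libraries, and the DR GR-Con female was the lowest control by a wide margin. The mean over 4 libraries was 36.7 CPM in GR-KO against 211 in GR-Con, a log2 fold change of −2.56, which was the largest decrease among the 7461 astrocyte genes whose log2 CPM averaged 4 or more. It was −3.14 in NR and −1.98 in DR, where it was −1.20 without the DR GR-Con male and −2.49 without the DR GR-KO female.

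Phyhd1, a member of the 2-oxoglutarate-dependent oxygenases related to phytanoyl-CoA hydroxylase, was at 75.7 and 64.5 CPM in NR GR-Con (male, then female, here and in the sentences that follow), 20.4 and 13.1 in NR GR-KO, 53.8 and 45.0 in DR GR-Con, and 13.4 and 14.3 in DR GR-KO. The genotypes did not overlap, and the lowest control was more than 2 times the highest knockout library. The log2 fold change over 8 libraries was −1.99, ranking 4th among decreases, with −2.14 in NR and −1.81 in DR.

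Prom1 encodes prominin-1 (CD133), a cholesterol-binding glycoprotein of membrane protrusions. Its level was 40.1 and 52.6 CPM in NR GR-Con, 10.4 and 13.6 in NR GR-KO, 37.5 and 25.1 in DR GR-Con, and 13.2 and 14.5 in DR GR-KO. The genotypes did not overlap and the 4 knockout libraries lay close together. The log2 fold change was −1.59 (−2.0 in NR and −1.16 in DR), 11th among decreases.

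Scrg1 encodes a secreted cysteine-rich protein named for its discovery in scrapie-infected brain. It was at 108 and 96.0 CPM in NR GR-Con, 60.2 and 51.9 in NR GR-KO, 84.2 and 90.1 in DR GR-Con, and 37.3 and 38.3 in DR GR-KO. The genotypes did not overlap, under NR or under DR, and the DR GR-KO libraries were the lowest. The log2 fold change was −1.05 (−0.93 in NR and −1.18 in DR), 43rd in rank.

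Them4, an acyl-CoA thioesterase also known as a binding partner of the kinase Akt, was at 26.0 and 32.0 CPM in NR GR-Con, 121 and 92.4 in NR GR-KO, 37.4 and 26.1 in DR GR-Con, and 129 and 105 in DR GR-KO. Every knockout library was above every control library. With 112 CPM in GR-KO against 30.4 in GR-Con, the log2 fold change of 1.85 was the largest increase among the ranked genes, and it was nearly equal in NR (1.81) and DR (1.90).

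Map3k19, a kinase at the top of a MAP kinase cascade, was at 36.7 and 22.9 CPM in NR GR-Con, 53.1 and 30.7 in NR GR-KO, 30.2 and 13.5 in DR GR-Con, and 59.5 and 76.1 in DR GR-KO. The genotypes overlapped under NR and were apart under DR. The log2 fold change was 0.42 in NR, 1.65 in DR and 1.04 over 8 libraries (24th among increases, but 438th in NR alone). In NR the GR-KO library was above the GR-Con library of the same sex, for males and for females. The log2 fold change in NR was −0.01 without the NR GR-KO male and 0.79 without the NR GR-Con male, so its size depended on single libraries. Such a fit sets a library of 1 sex against libraries of both sexes, so it mixes sex with genotype. In DR the log2 fold change was 1.18 without the DR GR-Con female and 2.39 without the DR GR-Con male.

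8030451A03Rik was at 12.9 and 17.9 CPM in NR GR-Con, 49.8 and 48.2 in NR GR-KO, 43.6 and 15.8 in DR GR-Con, and 79.4 and 52.0 in DR GR-KO. The genotypes did not overlap, but the DR GR-Con male stood above the other controls and near the lowest knockout library. The log2 fold change was 1.37 (1.61 in NR and 1.15 in DR), 7th among increases, and in DR it was 0.57 without the DR GR-Con female and 2.09 without the DR GR-Con male.

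**Figure D1:**
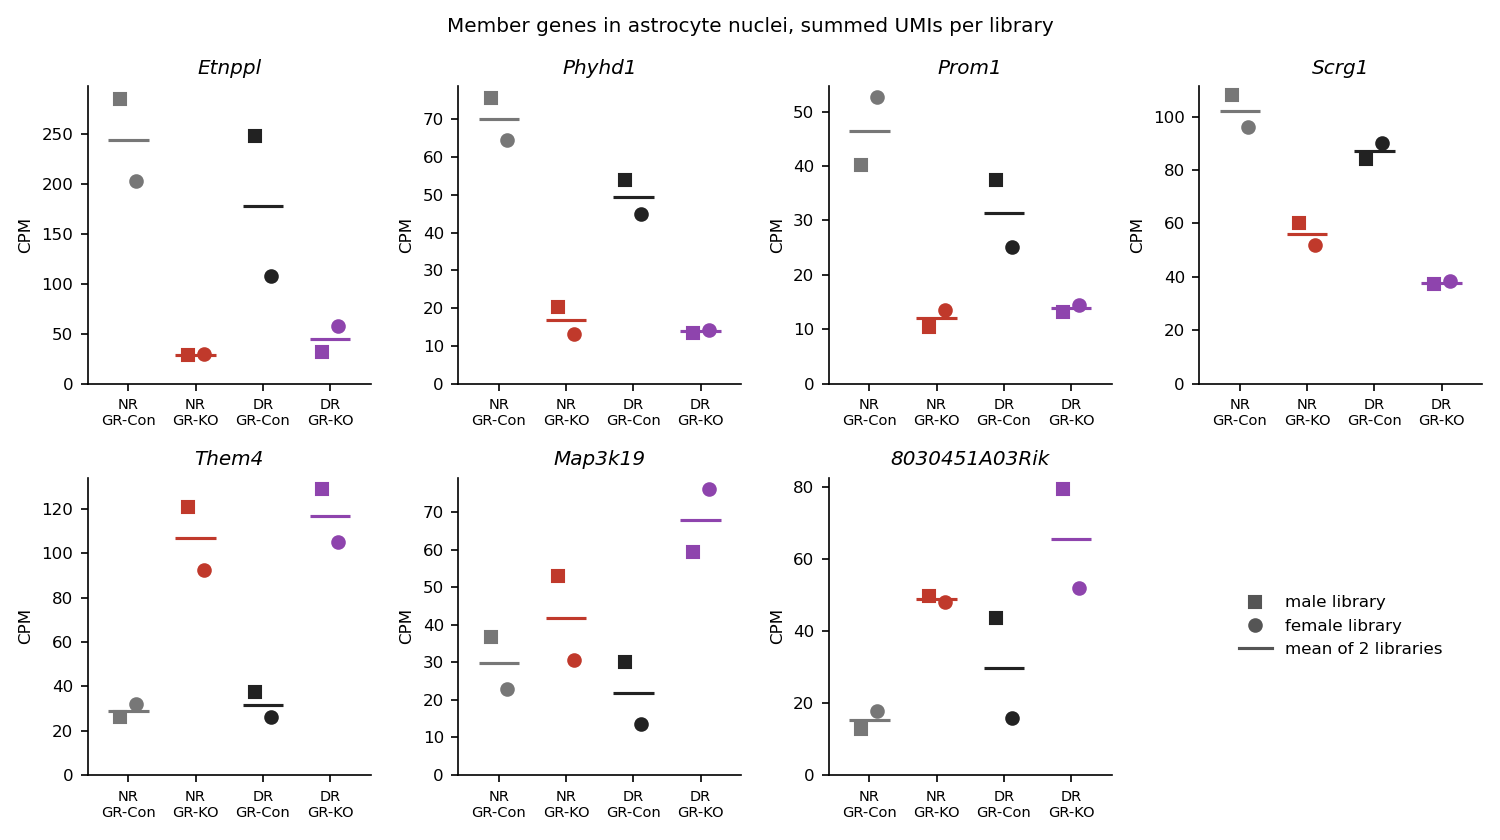
CPM of each gene in the summed astrocyte nuclei of each library, by group (x axis) with squares for male and circles for female libraries and a bar for the mean of the 2. The first 4 panels are lower and the last 3 higher in GR-KO, and Map3k19 under NR is the case in which the control and knockout ranges overlap.

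In 6 of the 7 genes the 4 GR-KO and 4 GR-Con libraries did not overlap, where 7.90% of all 14402 genes tested had no overlap in either direction. This contrast chose the members, and nothing is read from their count. The difference between the NR and DR fold changes was −1.23 for Map3k19, −1.17 for Etnppl, −0.85 for Prom1, 0.45 for 8030451A03Rik, −0.34 for Phyhd1, 0.24 for Scrg1 and −0.09 for Them4, given without a test for the same reason. Markers of some other cell types moved with genotype in these astrocyte sums. The 5 oligodendrocyte markers, none at 0, summed to 114 to 132 CPM in NR GR-Con against 151 to 193 CPM in NR GR-KO, and to 71.0 to 93.6 CPM in DR GR-Con against 98.7 to 105 CPM in DR GR-KO. The 4 OPC markers were at 7.17 to 7.94 CPM in GR-Con against 9.25 to 11.7 CPM in GR-KO in NR, and at 5.94 to 6.60 against 7.51 to 8.35 CPM in DR. In NR the 5 excitatory neuron markers were at 173 to 228 against 257 to 267 CPM. The 3 inhibitory neuron markers were at 15.5 to 15.7 against 23.0 to 25.2 CPM there. In DR both overlapped, at 146 to 192 against 170 to 174 CPM and at 11.5 to 13.5 against 11.1 to 12.6 CPM. The summed markers of smooth muscle cells and pericytes were lower in NR GR-KO (106 to 112 against 119 to 126 CPM) and overlapped in DR. Those of microglia, endothelial cells and vascular leptomeningeal cells overlapped between genotypes in NR and in DR. The 10 astrocyte markers were lower in NR GR-KO (4737 to 4766 against 5129 to 5534 CPM) and overlapped in DR. The part of these shifts in the members' differences was not tested. In sums over nuclei, fewer nuclei with the transcript and less transcript per nucleus cannot be told apart.

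The share of astrocyte nuclei with at least 1 UMI of a gene was taken after thinning each nucleus to 2000 UMIs, which left out 28 nuclei per genotype. A share at this depth falls with fewer nuclei that hold the transcript and with less transcript per nucleus, so it does not tell these apart. Etnppl was detected in 17.7 to 38.5% of nuclei over the 4 GR-Con libraries and in 4.80 to 7.26% over the 4 GR-KO libraries (51.0% against 10.2% on average without thinning). In nuclei with a UMI the mean number of thinned Etnppl UMIs ran from 1.30 to 1.53 in GR-Con and from 1.30 to 1.54 in GR-KO. These ranges overlapped for Etnppl, and also for Phyhd1 (1.09 to 1.20 in GR-Con and 1.03 to 1.22 in GR-KO), Prom1 (1.09 to 1.16 and 1.00 to 1.12) and Scrg1 (1.12 to 1.20 and 1.08 to 1.20). A mean over nuclei with a UMI cannot be below 1, and those of Phyhd1, Prom1 and Scrg1 lay near it. A fall per nucleus could thus hardly show, and nothing is read from the overlap. For the higher genes both the share and the UMIs per detected nucleus were apart, with 1.02 to 1.12 in GR-Con and 1.33 to 1.45 in GR-KO for Them4, 1.06 to 1.14 and 1.21 to 1.26 for 8030451A03Rik, and 1.00 to 1.04 and 1.06 to 1.14 for Map3k19. After thinning to 1000 UMIs instead, the UMIs per detected nucleus of these 3 genes overlapped between genotypes (1.00 to 1.14 and 1.10 to 1.23 for Them4), so that separation depended on depth. In layer 2/3 neurons, taken as a type without the gene, 4 of 11736 thinned GR-Con nuclei (0.0341%) had an Etnppl UMI, with a median of 21149.5 UMIs before thinning against 6012.0 in astrocytes. Shares of the other lower genes ranged from 6.95 to 14% in GR-Con and 1.74 to 3.90% in GR-KO for Phyhd1, from 4.63 to 10.1% and 2.16 to 2.95% for Prom1, and from 14.6 to 18.4% and 6.65 to 9.31% for Scrg1. Them4 went from 4.43 to 6.92% in GR-Con to 16.8 to 20.9% in GR-KO, Map3k19 from 1.71 to 6.09% to 6.95 to 12.9%, and 8030451A03Rik from 2.42 to 8.32% to 8.77 to 12.5%. The shares of 8030451A03Rik overlapped after thinning to 1000 UMIs (1.21 to 5.13% in GR-Con and 5.00 to 6.28% in GR-KO). For Phyhd1 and Them4 layer 2/3 nuclei of GR-Con also held the transcript (3.37% and 2.61%), so their shares in astrocytes are read beside expression in other cells and not against an empty background.

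To ask whether the members also differed inside a library by the presence of vector transcript, astrocyte nuclei with a UMI of eGFP (eGFP-positive) were compared with those without. There were 360 positive and 4002 negative nuclei in GR-KO and 328 and 4796 in GR-Con, and medians of 4776.0 to 12519.0 and 4896.0 to 12101.0 UMIs per nucleus in the GR-KO libraries. Without thinning, an eGFP UMI was seen in 8.25% of GR-KO astrocytes and 1.37% of GR-KO layer 2/3 neurons. Their medians differed, at 6393.5 and 23592.0 UMIs per nucleus. After thinning to equal depth, as for the shares above, 2.95% of these astrocytes and 0.0590% of these neurons had an eGFP UMI. A nucleus without one is not shown to lack the vector, and the sort kept nuclei without GFP fluorescence. In GR-KO, 3 of the 7 genes were called lower in eGFP-positive nuclei and none higher (edgeR likelihood ratio test, two-sided, Benjamini-Hochberg adjusted p below 0.05), where 3.0% of 12987 genes were called.

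Etnppl was at 2.02, 4.12, 4.05 and 19.7 CPM in the positive nuclei of the NR male, NR female, DR male and DR female GR-KO libraries and at 32.2, 31.6, 34.4 and 59.6 CPM in their negative nuclei. It was lower in the positive nuclei of 4 of 4 libraries, on 16 UMIs against 1150. Its log2 fold change was −2.71 (SE 0.27, adjusted p = 5.5e-20 by the edgeR likelihood ratio test). In the GR-Con libraries it was 229 ± 101 CPM in positive and 211 ± 74.7 CPM in negative nuclei (SD, n = 4), and the log2 difference was 0.03 with a 95% interval from −0.16 to 0.21. The difference between genotypes was itself called, at −2.73 (SE 0.30, adjusted p = 6.5e-16), and Etnppl had the smallest p of the 17 genes called in that test (0.124% of 13677). A UMI of Cre as the mark gave a still lower value, with 1 Etnppl UMI in 200 Cre-positive nuclei against 1165 in 4162 negative ones, or 1.65% of the level in negative nuclei (exact 95% interval from 0.0417 to 9.21%, counting error only).

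Scrg1 was called lower in eGFP-positive GR-KO nuclei, at 30.3 ± 10.5 CPM there and 48.5 ± 11.8 CPM in negative nuclei. The log2 difference was −0.66 (SE 0.16, adjusted p = 0.0022 by the edgeR likelihood ratio test), in 4 of 4 libraries. Its adjusted p was 0.099 without the NR GR-KO male. Phyhd1 was also called (9.17 ± 3.0 against 16.0 ± 3.96 CPM, −1.0, SE 0.29, adjusted p = 0.025, lower in 4 of 4 libraries), on 24 UMIs in positive nuclei. Its adjusted p was 0.4 without the NR GR-KO male, 0.18 without the NR GR-KO female and 0.7 after thinning to 2000 UMIs per nucleus, so this call depended on those choices. Prom1 was at 6.83 ± 1.61 against 13.4 ± 1.72 CPM and lower in 4 of 4 libraries, but did not pass (−0.93, SE 0.32, adjusted p = 0.086). With a Cre UMI as the mark Prom1 passed (−2.09, adjusted p = 0.005), on 5 UMIs, and Phyhd1 (adjusted p = 0.63) and Scrg1 (adjusted p = 0.11) did not. DESeq2 called Etnppl alone and the edgeR quasi-likelihood test called the same 3 genes. Among the 10 astrocyte markers only Slc1a3 was called, at −0.20.

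The genes that were higher in GR-KO showed no called difference by eGFP. Them4 was at 108 ± 31.6 CPM in positive and 112 ± 15.3 CPM in negative GR-KO nuclei, with a log2 difference of −0.08 (95% interval from −0.29 to 0.12). Map3k19 was at 64.3 ± 22.7 and 54.0 ± 18.7 CPM (0.20, from −0.06 to 0.47), and 8030451A03Rik at 62.2 ± 20.1 and 56.9 ± 15.2 CPM (0.17, from −0.11 to 0.44).

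In GR-Con, where the vector carries the inactive Cre, none of the 7 genes was called by the edgeR likelihood ratio test, its quasi-likelihood test or DESeq2, where 1.09% of 13511 genes were. The 1 gene with an unadjusted p below 0.05, where 8.46% of all genes had one, was Them4, which was lower in the positive nuclei of 4 of 4 libraries (20.2 ± 9.12 against 31.2 ± 4.91 CPM, −0.73, SE 0.23, adjusted p = 0.12). Scrg1 was also lower in 4 of 4, at 83.4 ± 7.62 against 95.4 ± 10.8 CPM, with a smaller log2 difference of −0.22 (95% interval from −0.46 to 0.03). In the test of the difference between genotypes the other 6 members were not called. By the edgeR likelihood ratio test 5 of the 7 genes had an unadjusted p below 0.05, as had 6.43% of all genes. The difference was −1.07 for Phyhd1 (adjusted p = 0.26), −0.93 for Prom1 (0.54), −0.44 for Scrg1 (0.7) and 0.65 for Them4 (0.52).

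**Figure D2:**
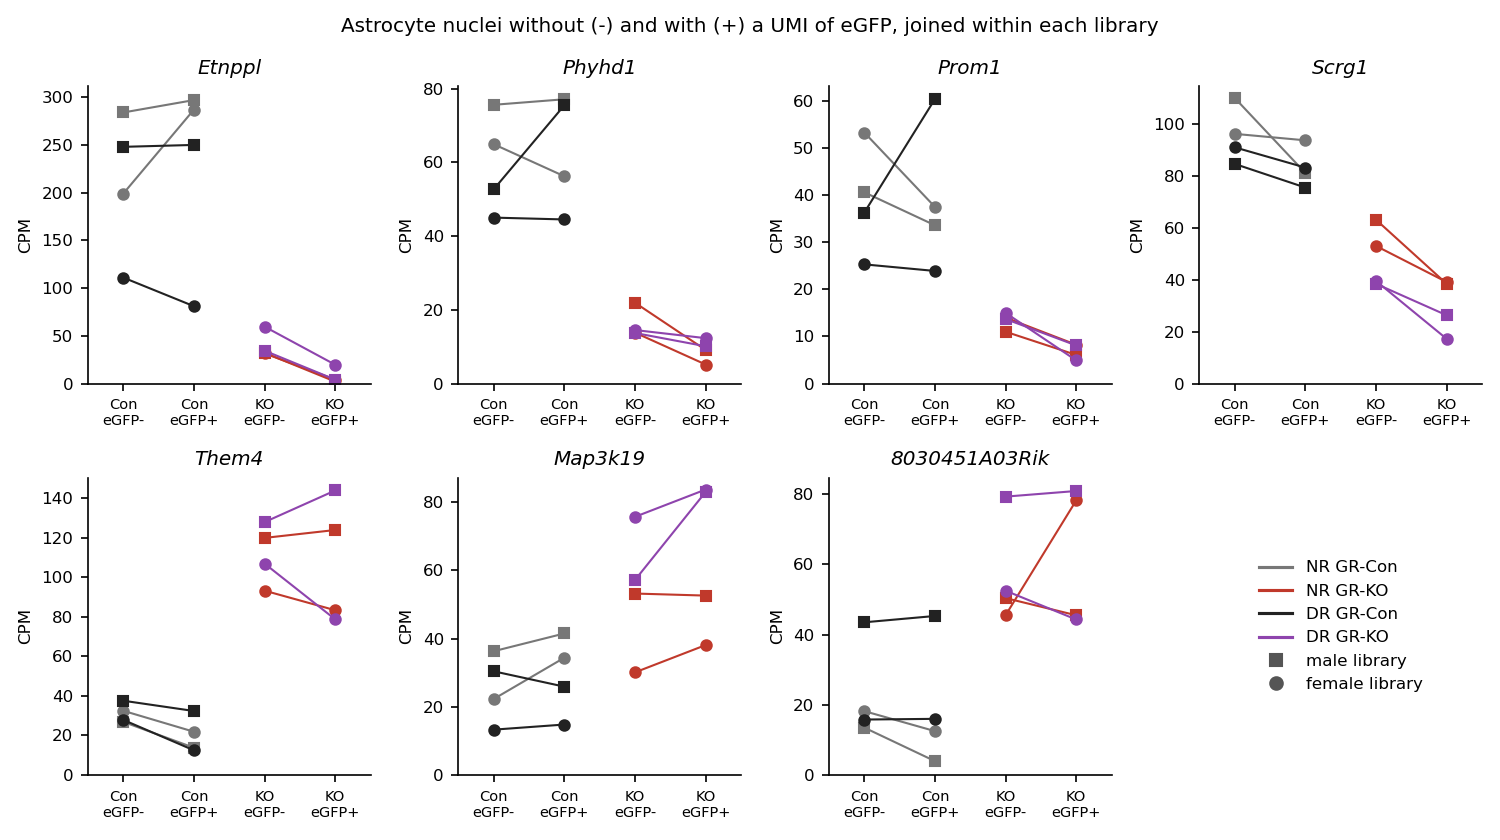
CPM in astrocyte nuclei without and with an eGFP UMI, joined by a line within each library (squares male, circles female), for GR-Con on the left and GR-KO on the right of each panel. Etnppl, Phyhd1, Prom1 and Scrg1 go down from negative to positive nuclei in all 4 GR-KO libraries, and Scrg1 and Them4 go down in all 4 GR-Con libraries.

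The 7 genes differed in which other cell types held them. In GR-Con, Etnppl had its highest level in astrocytes (211 ± 76.5 CPM, SD, n = 4) and little elsewhere: in 18 of the 19 other types its share of the astrocyte level lay within or below the range of the 10 astrocyte markers. The exception, smooth muscle cells and pericytes, rested on 9 UMIs, all from 7 nuclei of the NR GR-Con male library. 8030451A03Rik was also highest in astrocytes (22.5 ± 14.2 CPM), and vascular leptomeningeal cells came next at 5.45 ± 4.35 CPM without overlap of the ranges.

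Phyhd1 was highest in microglia, with means of 393 ± 27.5 CPM (GR-Con) and 430 ± 27.1 CPM (GR-KO), although 2 GR-Con libraries and 1 GR-KO library had under 10 microglia. Its GR-Con values there were 386, 389, 430 and 364 CPM, far above the 45.0 to 75.7 CPM of astrocytes. After thinning, 55.4% of GR-Con and 56.9% of GR-KO microglia had a Phyhd1 UMI. Astrocytes were followed by vascular leptomeningeal cells (24.5 ± 20.0 CPM), layer 6b neurons (23.4 ± 4.09 CPM) and layer 6 intratelencephalic neurons (21.7 ± 1.03 CPM), and from astrocytes on each range overlapped the next.

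Prom1 was highest in endothelial cells (335 ± 67.5 CPM) and next in oligodendrocytes (189 ± 8.17 CPM), and both ranges lay above that of astrocytes (38.8 ± 11.3 CPM), which overlapped that of Lamp5 interneurons (25.2 ± 3.55 CPM). Scrg1 was shared by astrocytes and the oligodendrocyte lineage, with 134 ± 25.4 CPM in oligodendrocyte precursor cells (OPC), 94.6 ± 10.1 CPM in astrocytes and 73.7 ± 30.4 CPM in oligodendrocytes. These 3 ranges overlapped from neighbour to neighbour, and vascular leptomeningeal cells followed, apart from them, at 8.46 ± 8.09 CPM.

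Them4 was found in every type tested, at 9.96 to 18.4 CPM in the GR-Con means of the other types with at least 10 nuclei per library and at 30.4 ± 5.45 CPM in astrocytes. Map3k19 was at 25.8 ± 9.96 CPM in astrocytes and at most 1.98 CPM in those other types. The microglia means of both, 53.7 and 26.4 CPM, rested on the NR GR-Con male library, where 2 nuclei gave 193 and 96.6 CPM. Counting only libraries with at least 10 nuclei of a type, a choice made after seeing the data, 4 of the 7 genes were highest in astrocytes instead of 2, as Them4 and Map3k19 were added to Etnppl and 8030451A03Rik.

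**Figure D3:**
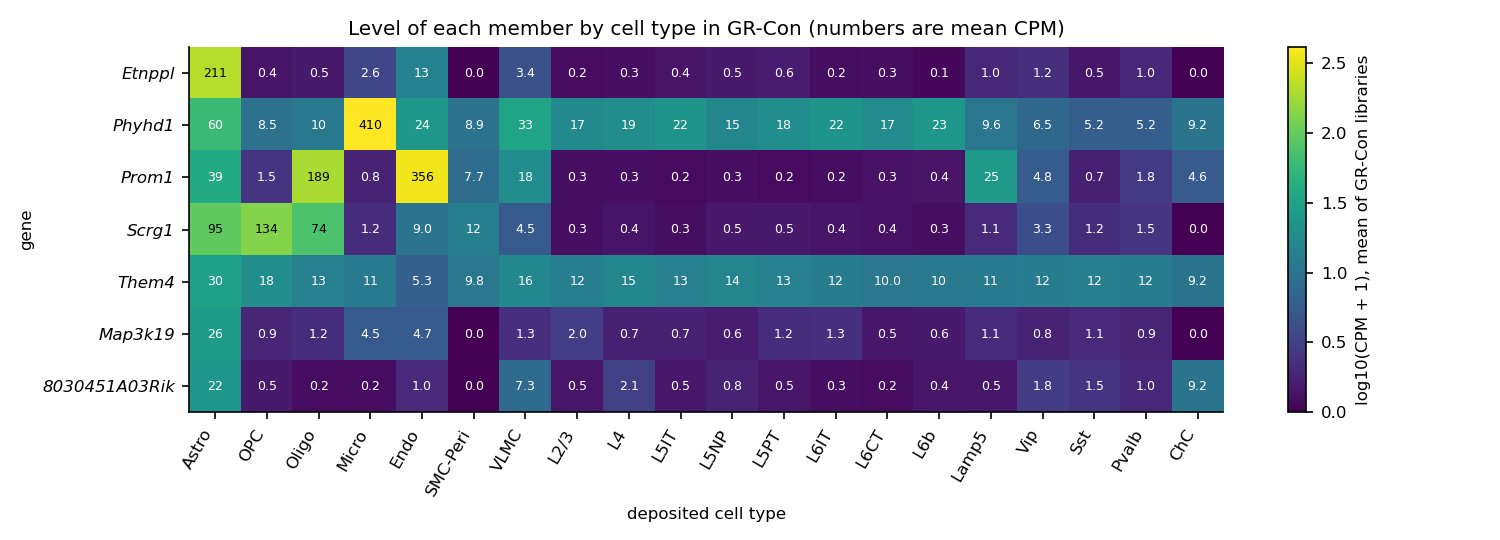
Mean CPM in GR-Con (numbers) by gene and deposited cell type, coloured on a log10(CPM + 1) scale, from libraries with at least 10 nuclei of the type. Etnppl, Map3k19 and 8030451A03Rik are bright in astrocytes, Phyhd1 also in microglia, Prom1 in endothelial cells and oligodendrocytes, Scrg1 in OPC and oligodendrocytes, and Them4 is present in every type.

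The genotype contrast was then tested in the 14 other cell types with at least 10 nuclei in every library, which left out chandelier cells, endothelial cells, microglia, smooth muscle cells and pericytes, and vascular leptomeningeal cells. Of 51 member and type pairs that passed the filter on low counts, 1 was called by the edgeR likelihood ratio test, where 0.0739% of 197617 gene and type pairs were called. Among the pairs, 4 had an unadjusted p below 0.05 (5.04% of all gene and type pairs), and the quasi-likelihood test and DESeq2 called 0.

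The pair was Etnppl in layer 4 neurons, at 0.535, 0.227, 0.172 and 0.230 CPM in the NR male, NR female, DR male and DR female GR-Con libraries and 0.0600, 0.0595, 0.103 and 0.0454 CPM in the GR-KO libraries of the same order. All knockout values were below all control values, on 12 against 61 UMIs. Etnppl passed the filter on low counts there only through the GR-Con libraries, where it was high, so the call is not read as a change in layer 4 neurons. The log2 fold change was −2.18 (SE 0.49, adjusted p = 0.013 by the likelihood ratio test and 0.54 by the quasi-likelihood test), and DESeq2 gave it no adjusted p. It was not called without the NR GR-Con male (adjusted p = 0.2), NR GR-KO male (0.17), DR GR-Con female (0.06) or DR GR-KO female (0.085). The level was 0.138% of that in astrocytes in GR-Con and 0.183% in GR-KO, within the 0.136 to 8.57% of the 10 astrocyte markers in GR-Con layer 4 neurons, none of which was called there (−0.41 to 1.05). It was the only other type in which Etnppl passed the filter, but the lower level was not particular to it: summed over all nuclei other than astrocytes, Etnppl was at 0.288 to 0.687 CPM in the GR-Con and 0.0715 to 0.149 CPM in the GR-KO libraries. Carry-over of astrocyte RNA was not tested as its source.

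For the other members no genotype difference was called in the types tested. The types with the highest levels of Phyhd1 and Prom1 were not among them: Phyhd1 in microglia is given above, and Prom1 in endothelial cells was at 367 ± 119 CPM in GR-KO against 335 ± 67.5 CPM in GR-Con, without a test. Phyhd1 ranged over 14 types from −0.47 to 0.24 in log2 fold change, and no 95% interval reached beyond −1.28. Them4 ranged over 14 types from −0.40 to 0.03, with −0.07 in OPC (95% interval from −0.42 to 0.28) and −0.11 in layer 4 neurons (from −0.32 to 0.09). No upper bound of its intervals passed 0.28, and the lowest value was that of layer 5 near-projecting neurons (−0.40, from −0.75 to −0.05, unadjusted p = 0.023 and adjusted p = 1 by the edgeR likelihood ratio test). Prom1 in oligodendrocytes had means of 184 ± 14.9 CPM (GR-KO) and 189 ± 8.17 CPM (GR-Con), a log2 difference of −0.06 (from −0.27 to 0.15), and was at 30.0 ± 8.20 and 25.2 ± 3.55 CPM in Lamp5 interneurons (0.25, from −0.08 to 0.58). Over its 6 types it ranged from −0.85 to 0.25. The lowest was in Pvalb interneurons, at 0.959 ± 0.565 against 1.75 ± 0.877 CPM (from −1.64 to −0.07, unadjusted p = 0.034 and adjusted p = 0.95 by the edgeR likelihood ratio test). In GR-Con layer 2/3 and layer 4 neurons Prom1 was at 0.726% and 0.703% of its astrocyte level, within the range of the astrocyte markers there.

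Scrg1 was at 127 ± 12.4 and 134 ± 25.4 CPM in OPC (−0.09, from −0.32 to 0.13) and at 55.3 ± 14.3 and 73.7 ± 30.4 CPM in oligodendrocytes (−0.43, from −0.98 to 0.13). Over its 7 types it ranged from −0.83, in Pvalb interneurons at 0.801 ± 0.319 against 1.49 ± 0.860 CPM (from −1.65 to −0.00), to 0.44 in layer 2/3 neurons. In GR-Con Pvalb interneurons Scrg1 was at 1.57% of its astrocyte level, within the 0.562 to 1.88% of the astrocyte markers there. It was also within the markers' range in GR-Con layer 2/3, layer 4, layer 6 corticothalamic and Vip neurons. No change of Scrg1 in those cells is read from these values, and carry-over of astrocyte RNA was not tested. Map3k19 entered 6 fits (−0.22 to 0.59) and 8030451A03Rik 3 (0.09 to 0.53), all at low levels. The highest value of 8030451A03Rik was in layer 2/3 neurons, at 0.646 ± 0.0618 against 0.454 ± 0.0502 CPM (from 0.10 to 0.96, unadjusted p = 0.015 and adjusted p = 0.74 by the edgeR likelihood ratio test). In GR-Con this was 2.01% of its astrocyte level, within the 0.199 to 5.25% of the astrocyte markers there. Map3k19 was within the markers' range in GR-Con layer 4, layer 6 intratelencephalic and layer 6 corticothalamic neurons. Whether the astrocyte difference exceeded that of another type was not tested, since the astrocyte contrast chose the genes.

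**Figure D4:**
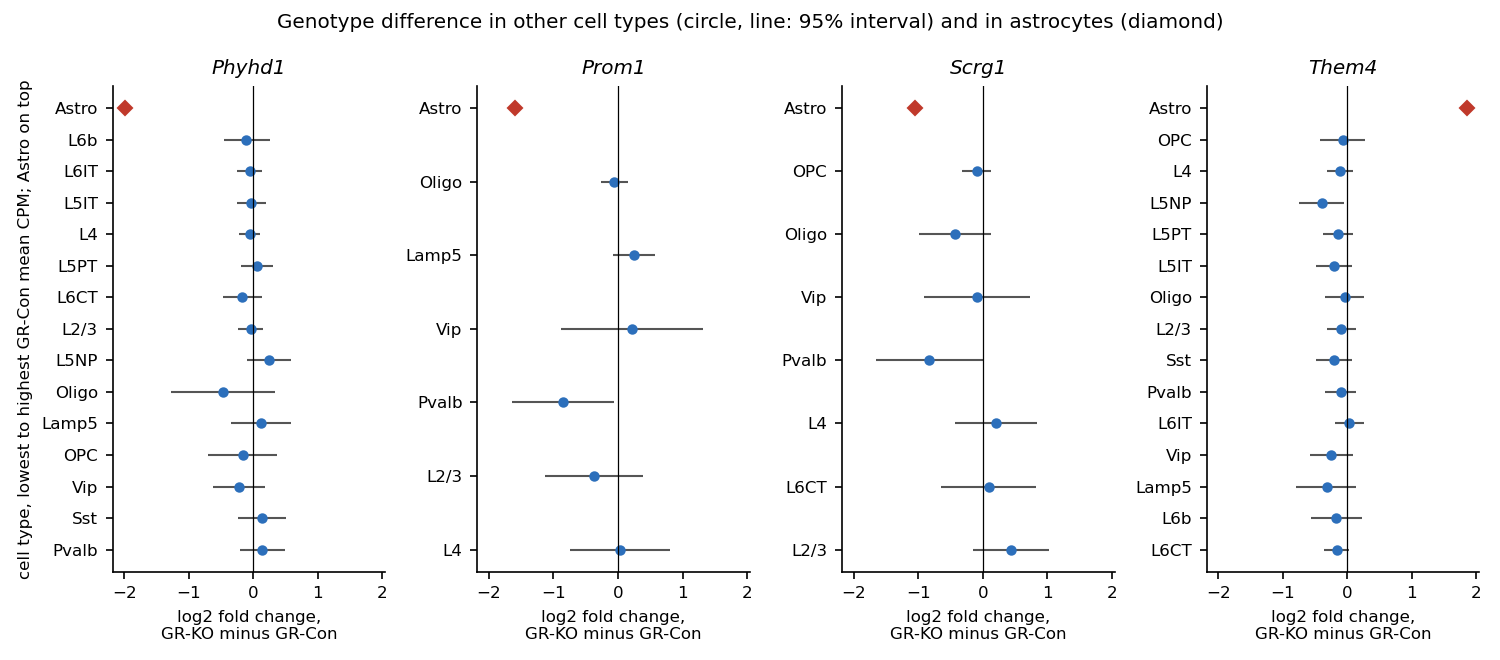
Log2 fold change of GR-KO against GR-Con (x axis) by cell type for Phyhd1, Prom1, Scrg1 and Them4, as circles with lines for the 95% interval, and the astrocyte value as a diamond without interval because it chose the genes. Map3k19, tested in 6 types like Prom1, is not shown. Most intervals of other types include 0, and the diamonds lie between −1.99 and 1.85.

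Rearing was compared over 8 libraries with genotype as a term. None of the 7 genes was called in astrocytes by the edgeR likelihood ratio test, its quasi-likelihood test or DESeq2, where the first called 0.917% of 14402 genes, and 3 had an unadjusted p below 0.05, as had 9.98% of all genes. Scrg1 was at 62.5 CPM in DR and 79.0 CPM in NR, a log2 difference of −0.35 (SE 0.11, adjusted p = 0.11 by the edgeR likelihood ratio test). 8030451A03Rik was at 47.7 and 32.2 CPM (0.71, SE 0.29, adjusted p = 0.3) and Phyhd1 at 31.6 and 43.4 CPM (−0.37, SE 0.17, adjusted p = 0.4). Without the DR GR-Con female library, Scrg1 (−0.39, adjusted p = 0.014) and 8030451A03Rik (0.89, adjusted p = 0.0021) passed, and genes called rose from 132 to 517, so these 2 calls turned on that library. Etnppl (0.11, 95% interval from −0.53 to 0.75) and Map3k19 (0.17, from −0.48 to 0.83) had wide intervals, and their directions differed between genotypes: within GR-Con alone the differences were −0.46 (SE 0.41) and −0.45 (SE 0.43), and within GR-KO alone 0.71 (SE 0.24) and 0.78 (SE 0.22), given without a test. Prom1 also turned, from −0.57 (SE 0.29) in GR-Con to 0.27 (SE 0.21) in GR-KO. Them4 (0.17, from −0.14 to 0.48) and Prom1 (−0.18, from −0.62 to 0.27) did not pass.

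Sex was compared with group as a term. None of the 7 genes was called by any of the 3 tools, where the likelihood ratio test called 0.169% of 14754 genes, and 1 had an unadjusted p below 0.05, as had 5.48% of all genes. It was Map3k19, at 35.8 CPM in female and 44.9 CPM in male libraries (−0.54, SE 0.23, adjusted p = 0.75 by the edgeR likelihood ratio test). The female library was lower in NR GR-Con, NR GR-KO and DR GR-Con and higher in DR GR-KO. Without the DR GR-KO male its difference was −0.86. With group as a term, a group left with 1 library gives no information on sex. Leaving out either DR GR-KO library thus drops the same pair, the only one with the opposite direction, and is not a separate check.

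Genes of the same pathways or families were described beside the members by the GR-KO against GR-Con contrast in astrocytes, where 4.80% of 14402 genes were called and the median log2 fold change of all genes was −0.00. The lists were written with earlier results known, and are given by counts and medians. Of 20 listed genes of ethanolamine and phosphatidylethanolamine metabolism, the pathway of Etnppl, 18 passed the filter on low counts and 0 were called by the edgeR likelihood ratio test, its quasi-likelihood test or DESeq2, and 4 had an unadjusted p below 0.05, as had 13.3% of all genes (median 0.04).

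Of 15 listed genes of phytanic acid and branched-chain oxidation, related to Phyhd1, 13 were tested and 1 was called (median −0.03). Of 15 listed acyl-CoA thioesterases, a class of enzymes that includes Them4, 8 were tested and 1 was called (median −0.08): Acot11 fell from 156 ± 15.7 to 84.9 ± 12.8 CPM (−0.91, SE 0.10, adjusted p = 1.5e-16), with GR-Con libraries at 137 to 175 CPM and GR-KO libraries at 73.1 to 96.6 CPM. Its direction was opposite to that of Them4.

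Of 17 listed MAP kinase kinase kinases 14 were tested, and 0 were called by any of the 3 tools and 0 had an unadjusted p below 0.05 (median 0.01). Of 9 listed prominin and membrane protrusion partners 7 were tested, and 3 were called and all were lower (median −0.13). Ttyh3, a chloride channel family member, fell from 351 ± 47.3 to 235 ± 16.8 CPM (−0.60, adjusted p = 3.7e-04), Ezr, which links membrane to actin, from 135 ± 33.5 to 87.4 ± 1.83 CPM (−0.62, adjusted p = 0.0016), and Ttyh1, related to Ttyh3, from 622 ± 95.3 to 460 ± 19.9 CPM (−0.46, adjusted p = 0.023 by the edgeR likelihood ratio test and 0.064 by its quasi-likelihood test). The call of Ttyh1 was lost in 5 of the 8 fits that left out a library.

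The genes whose GR-Con levels across the 20 cell types were most like each member were named by Pearson's r of log2(CPM + 1) among 13923 genes, as a description in which all points share libraries and sparse types. For Etnppl these were Ttll8, Grin2c and Gm31614 (r = 0.99 each), and for Scrg1 Kank1 (0.98), Hepacam and Folh1 (0.97 each). Phyhd1 was nearest to Nrros and Tifa (0.92 each) and Ykt6 (0.89), Prom1 to its overlapping transcript Gm42716 and Plekhg1 (0.90 each) and Trappc13 (0.88), and Them4 to Trp53rka (0.92), Lrwd1 and E230001N04Rik (0.90 each). Map3k19 was nearest to Gna13 (0.95), Nadk (0.94) and Slc14a1 (0.93), and 8030451A03Rik to Gm48770 and Gm20743 (0.93 each) and to Tnc (0.90), which overlaps it on the other strand. Of these 21 genes, 3 were named again by Spearman's rho and 4 when libraries with under 10 nuclei of a type were left out. Among the members themselves r over the 21 pairs ran from −0.12 (Prom1 and Them4) to 0.78 (Phyhd1 and Map3k19). Without the libraries of under 10 nuclei of a type they ran from −0.15 (Prom1 and Them4) to 0.92 (Etnppl and Map3k19), with 0.58 for Phyhd1 and Map3k19.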

How the data were processed

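UMI counts per gene and nucleus were deposited by the authors without normalization, with a cell table that gives cell type, library, rearing, vector and sex, and the percent of mitochondrial UMIs. The submitters' processing notes name Cell Ranger 8.0.1, Seurat 5.3.0 and mm10, and the study's methods describe removal of predicted doublets. All values were whole numbers, and column sums equalled the cell table for 102330 nuclei. Barcode sequences recurred between libraries in 2452 nuclei (2.40%). No deposited per-sample column was left unused (0).

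Counts were summed per library and cell type, so the library (1 animal) was the replicate. Fits of genotype and of rearing held both as additive terms, so their p-values reflect spread within groups and any unlike effect between groups. Those for sex reflect how the difference between sexes varied between the 4 groups. Those for vector classes reflect how the difference within libraries varied between libraries. Library names give rearing, vector and sex but no replicate number. CPM are counts scaled to 1000000 UMIs of that library and cell type. Tests used edgeR 4.0.16 in R 4.3.3 (filterByExpr, TMM, glmFit, glmLRT as in the study's methods, two-sided), with Benjamini-Hochberg adjustment over all genes of a fit and calls at 0.05. Dividing a log2 fold change by the root of its likelihood ratio statistic gave its SE, and 95% intervals are the normal ones from that SE. Alternatives were edgeR quasi-likelihood, DESeq2 1.42.0, RLE factors, no filter, sex as a term, a single rearing or genotype, thinning to 2000 UMIs, Cre as the mark, and leaving out each library. Vector classes carried library as a term. Cell types needed at least 10 nuclei in every library. The astrocyte fits of rearing, genotype and sex over 8 libraries were run on simulated data. The fits of vector classes and those in other cell types were not. The simulated counts were drawn from the model that edgeR fits, with its own dispersions. They therefore cannot show whether that model holds for these data.

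The members, the 5 gene lists and the marker lists were chosen with earlier results of these data known. Genes named are the 7 members, Nr3c1, eGFP and Cre, up to 2 called genes per list and direction with the largest change (1 is not reported here; Ttyh1 was added after its values were seen), and the 3 nearest genes per member by Pearson's r over log2(CPM + 1), pseudocount 1. Depth limits are those of counting: intervals on shares and ratios cover counting error only.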

Additional observations from a re-analysis of the deposited data

Results flagged for a closer look

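Etnppl differed between genotypes in its response to the vector mark: the log2 difference between eGFP-positive and eGFP-negative astrocyte nuclei was lower in GR-KO than in GR-Con by −2.73, as the test of that difference showed.

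In groups of 4 libraries of 1 genotype with at least 10 UMIs of the gene in each, 9 of 93 had a library far from the other 3. Each group mixes both rearings and both sexes, so a chance rate for like libraries does not apply. In astrocytes these were the GR-KO library with Etnppl at 57.3 CPM (DR female), the GR-KO library with Phyhd1 at 20.4 CPM (NR male), and for 8030451A03Rik the DR males of both genotypes (43.6 CPM with GR-Con, 79.4 CPM with GR-KO). In other types they were Phyhd1 at 15 CPM in GR-Con layer 2/3 neurons, 22.2 CPM in GR-KO layer 5 pyramidal tract neurons, 5.79 CPM in GR-Con OPC and 4.55 CPM in GR-KO Pvalb interneurons, and Them4 at 15.2 CPM in GR-Con OPC.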

How the results depend on the processing

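No paired analysis was possible because the deposited tables carry no replicate number to match libraries across groups, only sex. Sex was fitted as a term instead, and vector classes were compared within libraries. With 2 libraries per group, a rare transcript or a small change is not resolved, and a fit without a library leaves 1 in that group, assumed to vary like the others. Of 948 values under alternatives for 85 results, 810 were labelled as unchanged. Tested differences had to keep direction and side of the threshold. Untested ones had to keep direction, and in the astrocyte genotype contrast also to lie within the pooled SD of the main value. Counts had only to stay close to the main count.

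Genes called were 3 (quasi-likelihood) against 132 for rearing, 6 (quasi-likelihood) and 13 (DESeq2) against 25 for sex, 134 (DESeq2) and 122 (thinned) against 390 for eGFP in GR-KO, 46 and 37 against 147 in GR-Con, and 11 and 3 against 17 for the difference between genotypes. DESeq2 called 1 of the 3 members called for eGFP in GR-KO. In other cell types the member pairs called were 0 by quasi-likelihood, DESeq2 and DR alone, and 2 with no filter, with sex as a term and in NR alone, where Etnppl in Pvalb interneurons joined Etnppl in layer 4, against 1. Pairs over all genes were 5 (quasi-likelihood), 278 (sex as a term), 763 (NR alone) and 967 (DR alone) against 146. In DR alone 1 list gene was called against 5. Leaving out libraries with under 10 nuclei, a choice made after seeing the data, gave 4 members highest in astrocytes against 2 and kept 4 of the 21 nearest genes, and Spearman's rho kept 3.

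Directions turned for the rearing difference of Etnppl (−0.46) and Map3k19 (−0.45) in GR-Con alone and of Prom1 in GR-KO alone (0.27), for the eGFP difference in GR-Con of Etnppl (−0.01) and Prom1 (−0.03) without filter and of Phyhd1 (−0.08), Prom1 (−0.20) and Map3k19 (−0.09) after thinning, and for Scrg1 in OPC in DR alone (0.15). None of these was called where a test was made, and the cause was not tested.

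Leaving out a library in turn gave 6 to 7 members without overlap, 0 to 2 members and 59 to 517 genes for rearing, 0 to 1 and 12 to 143 for sex, 1 to 3 and 206 to 347 for eGFP in GR-KO, 0 and 84 to 111 in GR-Con, 1 and 9 to 43 for the difference, 0 to 2 member pairs and 98 to 1121 pairs over all genes in other types, and 3 to 7 list genes. Genes called for rearing were 59 without the NR GR-Con male, 64 and 73 without the DR GR-KO male and female, and 220 and 517 without the DR GR-Con male and female. Those for sex were 12 to 15 without any 1 of the 4 NR libraries, 45 without either DR GR-KO library, and 140 and 143 without the DR GR-Con male and female. For eGFP they were 206 in GR-KO without the NR GR-KO male, 91 and 84 in GR-Con without the NR GR-Con male and female, and 9 and 43 for the difference without the NR GR-KO male and female. Pairs over all genes in other types were 1121 without the NR GR-KO female, and 410 and 267 without the DR GR-Con male and female. List genes were 3 without either NR GR-Con library. Members called were 2 for rearing without the DR GR-Con female, 1 for sex without either DR GR-KO library and 1 for eGFP in GR-KO without the NR GR-KO male. Member pairs in other types were 0 without the NR GR-Con male or the NR GR-KO male, and 2 without the NR GR-Con female, the DR GR-Con male or the DR GR-KO male. Values that crossed 0 were Map3k19 by genotype in NR (−0.01 to 0.79); for rearing Etnppl (−0.21 to 0.42), Prom1 (−0.33 to 0.00) and Map3k19 (−0.09 to 0.49); for sex Etnppl (−0.56 to 0.13) and Prom1 (−0.05 to 0.36). For eGFP they were 8030451A03Rik in GR-KO (−0.14 to 0.29), Etnppl (−0.10 to 0.16), Phyhd1 (−0.06 to 0.15) and Prom1 (−0.28 to 0.15) in GR-Con, and Map3k19 in the difference (−0.08 to 0.19). In other types they were Prom1 in oligodendrocytes (−0.11 to 0.00) and Them4 in OPC (−0.13 to 0.02).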
